A study of Mus musculus with 3 samples.

Results

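Glycolysis genes and genes switched on by low oxygen were followed in mouse lung cancer cells and in the sub-lines grown from their bone lesions. The list holds 39 genes in 5 roles: enzymes of glycolysis, glucose and lactate transporters, regulators of glycolysis with a branch enzyme, HIF alpha subunits with the prolyl hydroxylases, and other hypoxia targets. A gene was a member by its symbol alone, and its brightest probe stood for it. A named probe was found for 36 of the 39 genes, out of 19057 genes named on the array, and 30 of these 36 were above background. Hk2, Gpi1 and Eno1 had no probe under these names in the annotation used, so their expression was not analysed here, and they enter only the promoter counts.

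Each of 3 cell lines was measured on 1 Illumina array. LLC/luc P was the parental line, a Lewis lung carcinoma line of C57BL/6 origin that carries luciferase. LLC/luc BM1st and LLC/luc BM2nd were sub-lines from the 1st and 2nd rounds of selection in mice, in which cells injected into the heart were recovered from bone and cultured. All 3 lines were grown in the same serum-containing medium and none was labelled as exposed to low oxygen. The label for cell type calls all 3 lines osteotropic, the parental line too. With 1 array per line there was no replicate error, so no test was possible, and a difference between lines cannot be told apart from a difference between cultures or arrays. Each sub-line also stands for 1 selection only.

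Glycolysis splits glucose into pyruvate, and lactate dehydrogenase turns pyruvate into lactate so that the pathway can run on without oxygen. HIF, a transcription factor made of an alpha subunit and Arnt, is marked for destruction by oxygen-dependent prolyl hydroxylases and builds up when oxygen is short. It binds short DNA elements near glycolytic enzyme genes and near genes for blood vessel growth and acid balance, and many tumour cells keep glycolysis high even where oxygen is plentiful.

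Both bone-derived sub-lines had higher intensities than the parental cells for most of these genes. None of the 30 members above background was highest in the parental cells, 19 were highest in BM1st and 11 in BM2nd, whereas 31.7%, 34.9% and 33.4% of all 9655 genes above background were highest in parental, BM1st and BM2nd cells. This filter used the mean over the 3 arrays. Aldoc, Car9 and Ldhb were therefore below background in the parental cells and passed this filter through the sub-lines. For Ldhb the margin was narrow (109.43 against a background of 109.48 in the parental cells). Of the members it left out, Higd1a, Bnip3, Ero1a, Pfkfb3 and Epas1 read highest in the parental cells and Slc16a1 in BM2nd. In BM1st cells 29 of the 30 members had a log2 ratio to the parental cells above 0, against 49.3% of all genes above background. In BM2nd cells this held for 24 of 30, against 50.1% of all genes. The shifts were mostly moderate: the median log2 ratio over the 36 members with a probe was 0.47 in BM1st and 0.39 in BM2nd, while the medians over all genes above background were -0.0048 and 0.0018. Both ratios share the parental array, so they are not separate evidence for one another.

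A change of more than 2-fold was called a rise or a fall. BM1st against the parental cells had 7 members that rose (Aldoa, Aldoc, Eno2, Egln3, Adm, Car9 and Ankrd37) and 0 that fell, beside 2.2% and 1.93% of all genes above background. BM2nd against the parental cells had 3 that rose (Aldoc, Adm and Car9) and 0 that fell, beside 2.01% and 1.68%. From BM1st to BM2nd, Aldoc alone rose, beside 3.29% of all genes, and Pfkp, Slc2a1 and Ankrd37 fell, beside 1.95%. At a threshold of 1.5-fold, 14 members were higher and 0 lower in BM1st than in the parental cells (6.96% and 6.84% of all genes), and 13 were higher and 2 lower in BM2nd (7.38% and 6.7%). Between the sub-lines 1 member was higher and 6 were lower in BM2nd by this threshold, beside 9.31% and 7.78% of all genes. The only measure of technical scatter was the spread within an array pair: probes of the same gene differed by a median SD of 0.14 in log2 ratio over 3644 genes, and the receptor probes that set the background had an SD of 0.12. For the 13 members with several probes above background, the gap from lowest to highest probe was taken, which is a wider measure than an SD. The median gap was 0.28 in BM1st, 0.41 in BM2nd and 0.37 between the sub-lines. Neither measure covers scatter between arrays or cultures.

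**Figure D1:**
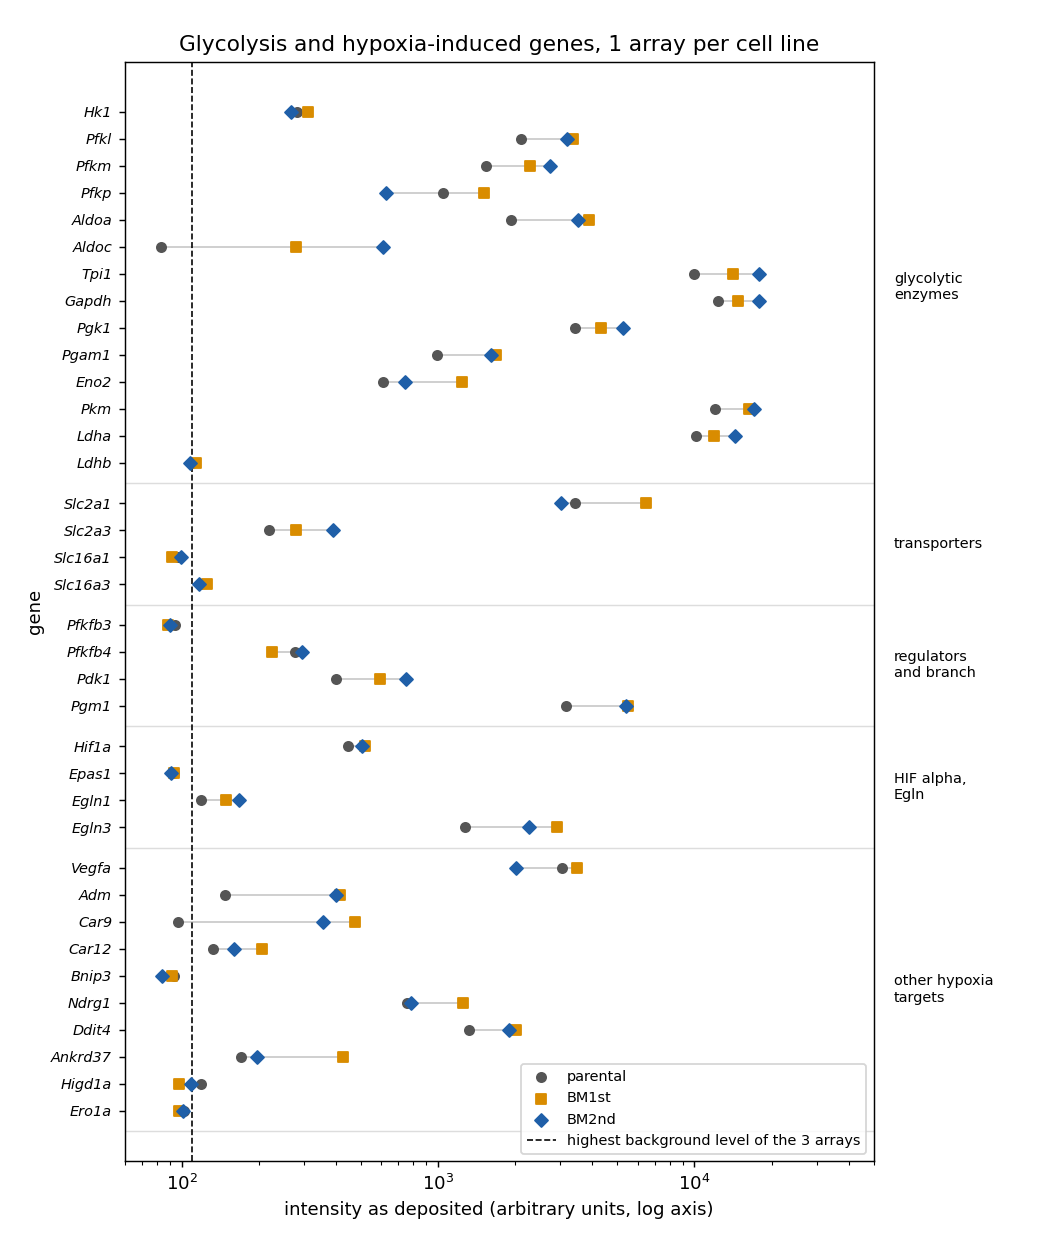
Intensity as deposited (log axis, arbitrary units) of the 36 genes with a probe, in rows by role, with 1 point for each of the 3 arrays and a grey bar from the lowest to the highest. The dashed line is the highest of the 3 background levels, 110. The parental point lies left of both sub-line points in most rows. Of the genes above background, Aldoc, Car9 and, narrowly, Ldhb have their parental point left of the dashed line.

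**Figure D2:**
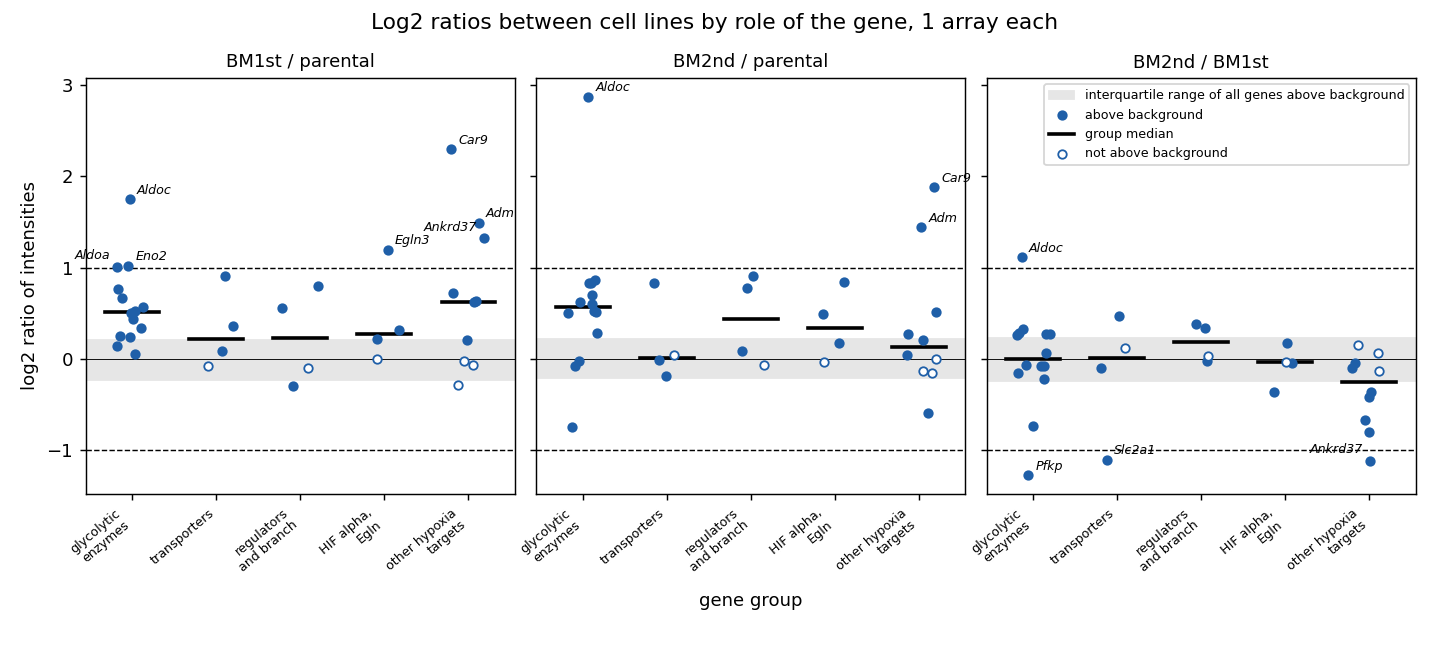
Log2 ratios (vertical axis) of the 36 genes by role for the 3 pairs of lines, filled where the gene was above background. Bars are group medians, the grey band is the interquartile range of all genes above background, dashed lines mark 2-fold, and named genes lie past it. The enzymes have a median of 0.52 in BM1st and 0.57 in BM2nd, and the other hypoxia targets have medians of 0.63 and 0.13.

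Most of the glycolytic enzymes with a probe read higher in both sub-lines than in the parental cells. All 14 enzyme genes with a probe had a ratio above 0 in BM1st and 11 of 14 did in BM2nd, with medians of 0.52 and 0.57. With the mean of all probes of a gene in place of its brightest, these medians were 0.30 and 0.39. The steps of the upper pathway, which spend ATP, begin with hexokinase. Hk1, a hexokinase found in most tissues, read 282 in parental, 310 in BM1st and 267 in BM2nd cells, with a log2 ratio in BM2nd of -0.08, smaller than the scatter between probes of a gene. Its 2nd probe, at 140, 169 and 154, had log2 ratios of 0.28 in BM1st and 0.14 in BM2nd. The 3 genes for phosphofructokinase, the committed step, parted company. Pfkl, the liver type, read 2105, 3353 and 3191, and Pfkm, the muscle type, read 1543, 2283 and 2745. Pfkp, the platelet type, read 1042, 1506 and 624. By their brightest probes Pfkl and Pfkm were higher in both sub-lines (log2 ratios of 0.60 and 0.83 in BM2nd), whereas Pfkp fell 2.41-fold from BM1st to BM2nd and ended below its parental level. The 2nd probe of Pfkp, at 210, 241 and 163, had the same order with a smaller fall, of 0.57 on the log2 scale. The 2nd probe of Pfkl, dimmer at 132, 131 and 121, went the other way, with log2 ratios of -0.01 and -0.13, so that the mean over both probes was 0.33 in BM1st and 0.24 in BM2nd. The 2nd probe of Pfkm, at 605, 816 and 1149, had the order of the first, and the third, at 154, 188 and 159, had a log2 ratio of 0.04 in BM2nd.

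The aldolase genes, whose enzymes cut the 6-carbon sugar, held the largest change among the enzymes. Aldoa, the aldolase of muscle and most cells, read 1931, 3897 and 3509 and rose 2.02-fold in BM1st, with a log2 ratio of 0.86 in BM2nd. Aldoc, an aldolase known from brain, read 83.0 in the parental cells, below that array's background of 109, and then 280 in BM1st and 608 in BM2nd. It was therefore at least 2.56-fold higher in BM1st and at least 5.55-fold higher in BM2nd than in the parental cells, and it rose 2.17-fold between the sub-lines. The other Aldoc probe was not above background and read 89.98, 101 and 99.4, so the rise rests on 1 probe.

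The steps from triosephosphate isomerase to lactate dehydrogenase differed in the same direction by less than 2-fold in nearly every case. Tpi1, triosephosphate isomerase, read 10000.5 in parental, 14185 in BM1st and 17819 in BM2nd cells. Gapdh, often used as a loading control, read 12399, 14788 and 17924. Pgk1, phosphoglycerate kinase, read 3413, 4328 and 5262. Each of these 3 genes was lowest in the parental cells and highest in BM2nd, with log2 ratios in BM2nd of 0.83, 0.53 and 0.62. The 2nd Tpi1 probe had a ratio of 0.69 in BM2nd, and the third, at 232, 314 and 220, one of -0.08. The 2nd Pgk1 probe, at 118, 142 and 129, had one of 0.13. Pgam1, phosphoglycerate mutase, read 989, 1687 and 1612, and Pkm, pyruvate kinase, read 12049, 16289 and 17075. Ldha, the lactate dehydrogenase subunit that favours lactate formation, read 10099, 11917 and 14426. These 3 were also lowest in the parental cells, with log2 ratios of 0.71, 0.50 and 0.51 in BM2nd. The 2nd Pgam1 probe, at 225, 258 and 290, was highest in BM2nd, with log2 ratios of 0.20 in BM1st and 0.37 in BM2nd. Eno2, the neuronal enolase, took another course and read 608, 1238 and 744, so that it rose 2.03-fold in BM1st and had a log2 ratio of 0.29 in BM2nd. Ldhb, the subunit that favours the reverse reaction, stayed at background with 109, 114 and 108. The summed intensity of the 14 enzyme probes was 56654 in parental, 76175 in BM1st and 85913 in BM2nd cells.

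**Figure D3:**
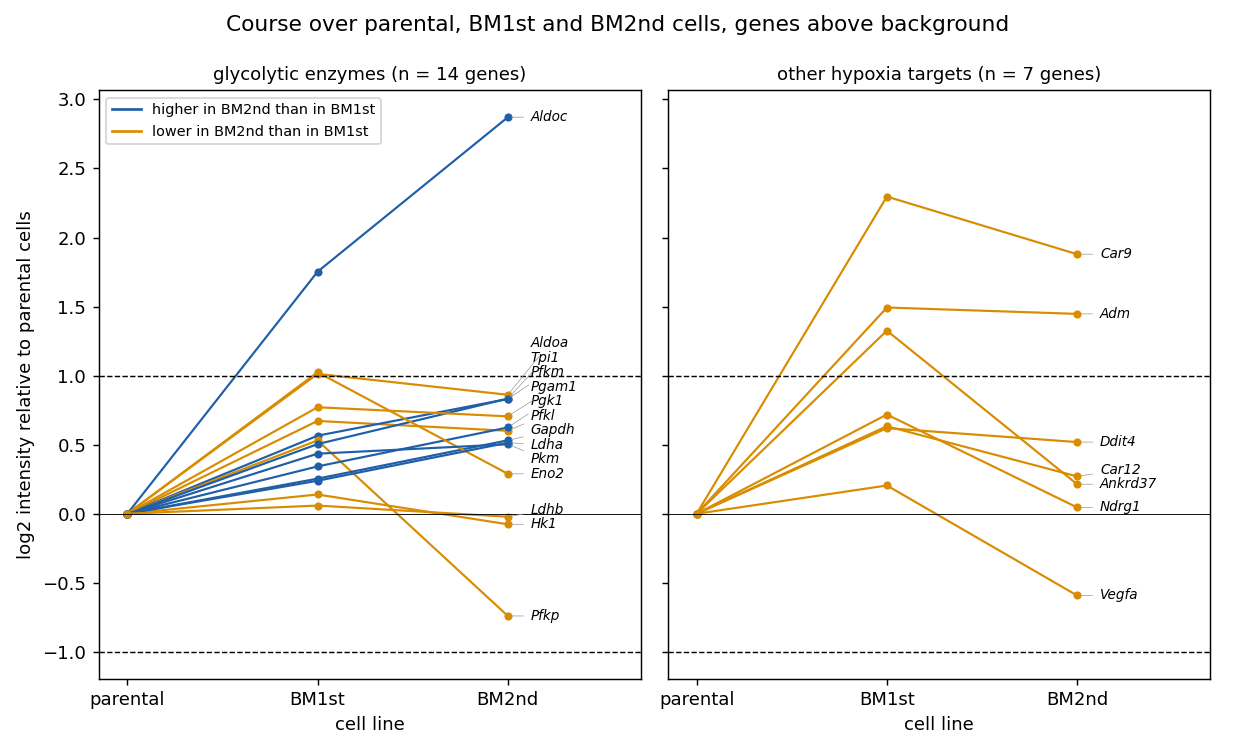
Log2 intensity relative to the parental cells (vertical axis) over the 3 cell lines (horizontal axis) for the 14 enzyme genes and for the 7 other hypoxia targets above background, 1 line per gene from 1 array each. Dashed lines mark 2-fold. Of the enzymes 7 go up again from BM1st to BM2nd and 7 go down, whereas all 7 hypoxia targets go down. The genes that go down are highest in BM1st, as were 34.9% of all genes above background.

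Of the transporters, the 2 glucose carriers took opposite courses after BM1st. Slc2a1, the main glucose carrier of proliferating cells and a HIF target, read 3434 in parental, 6464 in BM1st and 3013 in BM2nd cells. It was 1.88-fold higher in BM1st than in the parental cells, fell 2.15-fold from BM1st to BM2nd, and ended slightly below the parental array (log2 ratio -0.19). Slc2a3, a high-affinity glucose carrier, read 218, 280 and 389, with a log2 ratio of 0.83 in BM2nd. Slc16a3, the lactate exporter of glycolytic cells, stayed just above background at 118, 125 and 117, and Slc16a1, the other lactate carrier, was below background on every array. Both glucose carriers had 1 probe, so no probe check was possible for them.

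The regulators and the branch enzyme held no gene past 2-fold. Pdk1, a kinase that inhibits pyruvate dehydrogenase, read 400 in parental, 592 in BM1st and 751 in BM2nd cells (log2 ratio 0.91 in BM2nd). Pgm1, phosphoglucomutase, which joins glycogen breakdown to glycolysis, read 3148, 5491 and 5404, with log2 ratios of 0.80 and 0.78. Its 2nd probe, at 697, 1145 and 1314, had log2 ratios of 0.72 and 0.91. Both genes were therefore lowest in the parental cells, below the 2-fold threshold. Pfkfb4, which sets a potent activator of phosphofructokinase, read 277, 226 and 295 and was the only member above background that was lower in BM1st than in the parental cells (log2 ratio -0.30). Pfkfb3, of the same family, was below background on every array.

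Among the genes of the oxygen sensor, the mRNA of the HIF alpha subunits did not pass 2-fold. Hif1a read 446 in parental, 519 in BM1st and 505 in BM2nd cells, with log2 ratios of 0.22 and 0.18, inside the interquartile range of all genes in BM2nd and just outside it in BM1st. Epas1, the other alpha subunit, was below background on every array. HIF alpha is controlled mainly as a protein, which these arrays did not measure. The prolyl hydroxylases are themselves induced by HIF. Egln3 read 1268, 2913 and 2270 and rose 2.30-fold in BM1st, with a log2 ratio of 0.84 in BM2nd. Its 2nd probe, at 116, 275 and 171, had log2 ratios of 1.24 and 0.57. Egln1, the main oxygen sensor, read 119, 149 and 168, close to background, with log2 ratios of 0.32 and 0.49. Its probes disagreed: the 2nd, at 120, 165 and 143, was also lowest in the parental cells, but the third, at 127, 107 and 109, was highest there (log2 ratios of -0.25 and -0.22), and the mean over the 3 was 0.18 in BM1st and 0.17 in BM2nd.

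The other hypoxia targets above background had their highest intensity in BM1st, as did 34.9% of all genes above background. The 7 of these 10 genes that passed the background filter all read higher in BM1st than in the parental cells and lower in BM2nd than in BM1st. Car9, a carbonic anhydrase on the cell surface and a widely used marker of hypoxia, read 96.5 in the parental cells, below background, 474 in BM1st and 355 in BM2nd. It was at least 4.33-fold higher in BM1st and at least 3.24-fold higher in BM2nd than in the parental cells. The 2nd Car9 probe, at 95.5, 210 and 176, and the third, at 106, 133 and 129, had the same order with smaller ratios. Adm, adrenomedullin, a vasodilating peptide, read 147, 414 and 401 and rose 2.81-fold in BM1st and 2.73-fold in BM2nd. Car9 and Adm thus kept most of their BM1st level in BM2nd.

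The remaining targets varied in how far BM2nd stood from the parental array. Ankrd37, an ankyrin repeat gene known as a HIF target, read 170 in parental, 425 in BM1st and 197 in BM2nd cells, a 2.51-fold rise followed by a 2.16-fold fall. Ndrg1, a stress-responsive growth regulator, read 760, 1251 and 785, and its 2nd probe read 654, 1036 and 682. Vegfa, the main growth factor for blood vessels, read 3032, 3494 and 2012, and its 2nd probe 688, 903 and 463. Vegfa was therefore the target that stood lower in BM2nd than in the parental cells, with log2 ratios of -0.59 and -0.57 for the 2 probes. Ddit4, an inhibitor of mTOR signalling, read 1315, 2021 and 1885, and Car12, another surface carbonic anhydrase, read 133, 206 and 160. Bnip3 and Ero1a were below background on every array, and Higd1a was below it on average at 119, 97.4 and 108; all 3 read highest in the parental cells.

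Set side by side, the enzymes and the other hypoxia targets had medians of 0.52 and 0.63 in BM1st and of 0.57 and 0.13 in BM2nd. From BM1st to BM2nd the median was 0.0011 for the 14 enzymes and -0.25 for the 10 targets, beside -0.02 over all genes above background. Over the 7 targets above background the medians were 0.72 in BM1st, 0.27 in BM2nd and -0.42 between the sub-lines. The gap in BM2nd depends on which genes count as targets: with Egln1 and Egln3, which HIF also induces, the target median was 0.24 over the 12 genes, and 0.49 over the 9 above background, of which 8 had a ratio above 0. At 1.5-fold, 7 of the 14 enzymes were higher and 1 lower in BM2nd than in the parental cells. Of the 7 targets above background 2 were higher and 1 lower. Over all genes above background these shares were 7.38% and 6.7%. Neither group was uniform: Pfkp and Eno2 were lower in BM2nd than in BM1st by 1.27 and 0.74 on the log2 scale, like the targets, while Adm and Ddit4 differed between the sub-lines by only -0.05 and -0.10. Since a single array stands for each line, this contrast between the groups could not be tested.

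HIF binds elements with the core ACGTG or GCGTG, so both were searched on both strands of the promoter windows of RefSeq (build GRCm38.p6), which run from 250 bases before to 50 after each transcription start. Windows were found for 36 of the 39 genes, and none for Slc2a3, Epas1 and Ndrg1. The 250 bases before the start are printed below for the 3 members that rose in BM2nd against the parental cells (Car9, Adm and Aldoc), for the 3 that fell between the sub-lines (Pfkp, Slc2a1 and Ankrd37), and for Ldha as an enzyme below 2-fold, with the start farther upstream for Aldoc and Ldha. They read 5′ to 3′ along the gene's own strand, with the cores on either strand in capitals and, in Ldha, the E-box CACGTG too.
Car9 (chr4:43506776-43507025, plus strand): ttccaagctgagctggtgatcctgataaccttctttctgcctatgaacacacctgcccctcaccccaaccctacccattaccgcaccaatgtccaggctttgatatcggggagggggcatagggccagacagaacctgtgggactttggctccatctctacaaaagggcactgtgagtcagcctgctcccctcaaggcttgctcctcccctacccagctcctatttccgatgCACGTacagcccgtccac
Adm (chr7:110627407-110627656, plus strand): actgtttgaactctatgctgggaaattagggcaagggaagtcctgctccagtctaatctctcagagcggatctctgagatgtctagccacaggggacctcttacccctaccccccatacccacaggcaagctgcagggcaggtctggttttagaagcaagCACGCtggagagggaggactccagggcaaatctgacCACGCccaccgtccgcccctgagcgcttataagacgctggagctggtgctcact
Ankrd37 (chr8:45999851-46000100, minus strand): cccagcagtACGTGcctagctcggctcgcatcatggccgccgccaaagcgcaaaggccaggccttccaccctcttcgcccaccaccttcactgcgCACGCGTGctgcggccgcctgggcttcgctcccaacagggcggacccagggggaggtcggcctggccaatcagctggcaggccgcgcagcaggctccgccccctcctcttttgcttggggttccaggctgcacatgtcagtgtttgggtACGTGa
Aldoc (chr11:78322823-78323072, plus strand): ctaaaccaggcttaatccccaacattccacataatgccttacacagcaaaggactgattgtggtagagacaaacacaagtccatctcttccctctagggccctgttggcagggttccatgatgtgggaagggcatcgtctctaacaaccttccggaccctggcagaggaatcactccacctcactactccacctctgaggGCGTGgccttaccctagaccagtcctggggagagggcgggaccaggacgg
Pfkp (chr13:6648772-6649021, minus strand): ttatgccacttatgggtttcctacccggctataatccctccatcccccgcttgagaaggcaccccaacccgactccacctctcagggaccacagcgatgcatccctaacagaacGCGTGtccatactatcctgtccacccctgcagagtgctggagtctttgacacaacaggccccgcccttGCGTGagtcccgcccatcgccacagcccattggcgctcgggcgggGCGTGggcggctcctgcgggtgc
Slc2a1 (chr4:119108495-119108744, plus strand): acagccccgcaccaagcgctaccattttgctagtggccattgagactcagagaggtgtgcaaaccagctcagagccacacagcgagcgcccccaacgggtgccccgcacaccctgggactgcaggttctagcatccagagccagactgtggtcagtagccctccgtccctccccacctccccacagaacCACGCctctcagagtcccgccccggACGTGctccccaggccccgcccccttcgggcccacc
Ldha (chr7:46845554-46845803, plus strand): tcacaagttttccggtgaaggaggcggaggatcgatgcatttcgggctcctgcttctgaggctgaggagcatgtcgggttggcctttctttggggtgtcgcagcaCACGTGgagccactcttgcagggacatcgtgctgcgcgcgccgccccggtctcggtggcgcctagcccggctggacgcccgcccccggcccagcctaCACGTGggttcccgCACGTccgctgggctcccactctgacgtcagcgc
The counts that follow cover the 250 printed bases. Car9, the target with the highest ratio in BM1st, held 1 core on the reverse strand close to its start, and Adm held 2 of the GCGTG form. Ankrd37 held 4 cores, 2 of which overlap. Slc2a1 held 1 of each form, and Pfkp held 3 of the GCGTG form and 0 of the other. Aldoc held 1 GCGTG. Ldha held 5 matches of ACGTG, of which 4 lie in its 2 E-boxes, because the palindrome CACGTG counts once on each strand. The 50 bases after the start, not printed, held further cores in some of these windows. These were ACGTG and GCGTG in Aldoc, and GCGTG in Pfkp and Ldha.

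An ACGTG core lay in a window of 25 of the 36 genes, or 69.4%, against 21.8% of all 27025 genes with a window and 30.4% of the 7901 among them that were above background on these arrays. For GCGTG the shares were 63.9%, 35.2% and 56.9%, and for either core they were 88.9%, 46.7% and 68.8%. The enzymes held ACGTG in 10 of 17 genes and the other hypoxia targets in 7 of 9. The E-box occurred in 16.7% of the genes, against 8.09% of all and 12.2% of those above background. The windows of the listed genes and of the genes above background had the same median number of CG pairs, 20, against 7 for all genes, and genes with several starts had more than 1 window: counted by window, ACGTG lay in 56.0% of 50 windows of the listed genes and 26.3% of 10111 windows of genes above background. Several of the listed genes are textbook HIF targets, so the shares describe a chosen list, and a match is not a measured binding site.

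**Figure D4:**
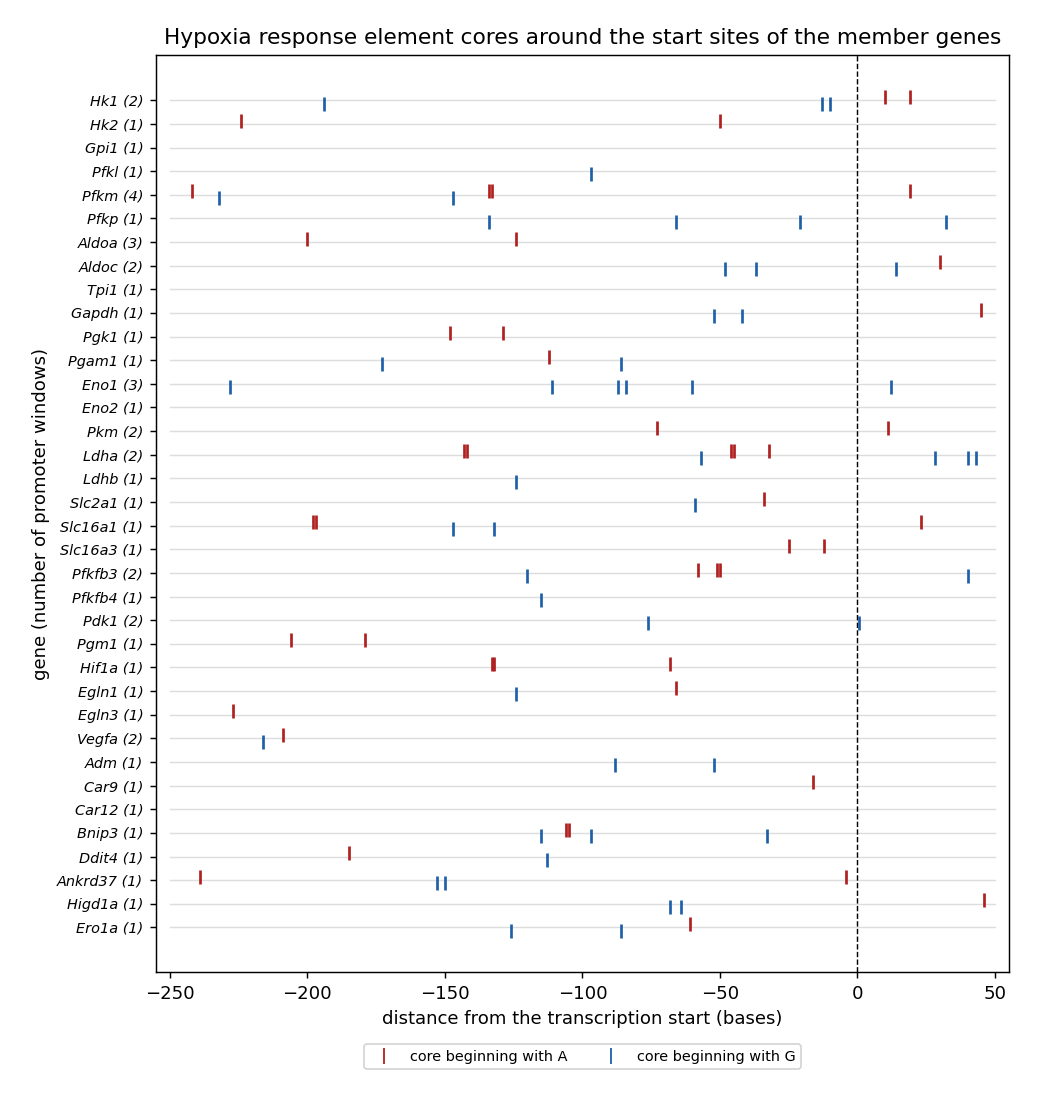
Position of the 2 forms of the core (ticks, both strands) along the promoter windows, in bases from the transcription start, for the 36 genes with a window. The number of windows per gene is in brackets, and ticks of all windows of a gene share its row. Gpi1, Tpi1, Eno2 and Car12 have no tick.

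Other genes of the pathways, from lists that held no member, were examined in the same way. Of 32 further HIF pathway genes 27 were above background. Of these 5 rose in BM1st and 3 in BM2nd against the parental cells, beside 2.2% and 2.01% of all genes above background. In either sub-line 0 fell, beside 1.93% and 1.68%. At 1.5-fold, 9 of the 27 were higher and 3 lower in BM1st, beside 6.96% and 6.84% of all genes. In BM2nd 7 were higher and 1 lower, beside 7.38% and 6.7%. The medians over the 30 with a probe were 0.17 and 0.21, and those over all genes with a probe were -0.0007 and -0.0016. Bhlhe40, a transcriptional repressor of the circadian clock, read 343 in parental, 1041 in BM1st and 1159 in BM2nd cells and rose 3.04-fold and 3.38-fold. P4ha2, a subunit of collagen prolyl hydroxylase, read 415, 1003 and 790, and Plod2, a collagen lysyl hydroxylase, read 612, 1459 and 829, rises of 2.42-fold and 2.38-fold in BM1st. Angptl4, a secreted inhibitor of lipoprotein lipase, read 99.3, 109 and 216 and was above background in BM2nd only, at least 1.97-fold above the parental array. P4ha1 and Plod1 rose in BM1st too and are named here after their values were seen, with intensities of 392, 796 and 398 and of 247, 520 and 419. P4ha1, P4ha2, Plod1 and Plod2, which modify collagen chains, thus made up 4 of the 5 genes that rose in BM1st, while P4hb, the partner subunit of the prolyl enzyme, read 12280, 13966 and 17002. The list had no such rise for the sensor's other parts: Arnt read 651, 880 and 669, and Vhl, which recognises hydroxylated HIF alpha, read 194, 172 and 201.

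The branches of glycolysis held few genes past 2-fold. Of 8 genes of the pentose phosphate pathway, which makes NADPH and ribose, 6 were above background. Taldo1, transaldolase, which returns pentose carbon to glycolysis, read 3104 in parental, 10962 in BM1st and 3488 in BM2nd cells, a 3.53-fold rise followed by a fall of 1.65 on the log2 scale. Rpe, which interconverts pentose phosphates, read 338, 433 and 709 and rose 2.10-fold in BM2nd. The lists of other glycolysis genes, pyruvate entry and glycogen metabolism, with 5, 8 and 4 genes above background, had 0 genes past 2-fold in any comparison.

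**Figure D5:**
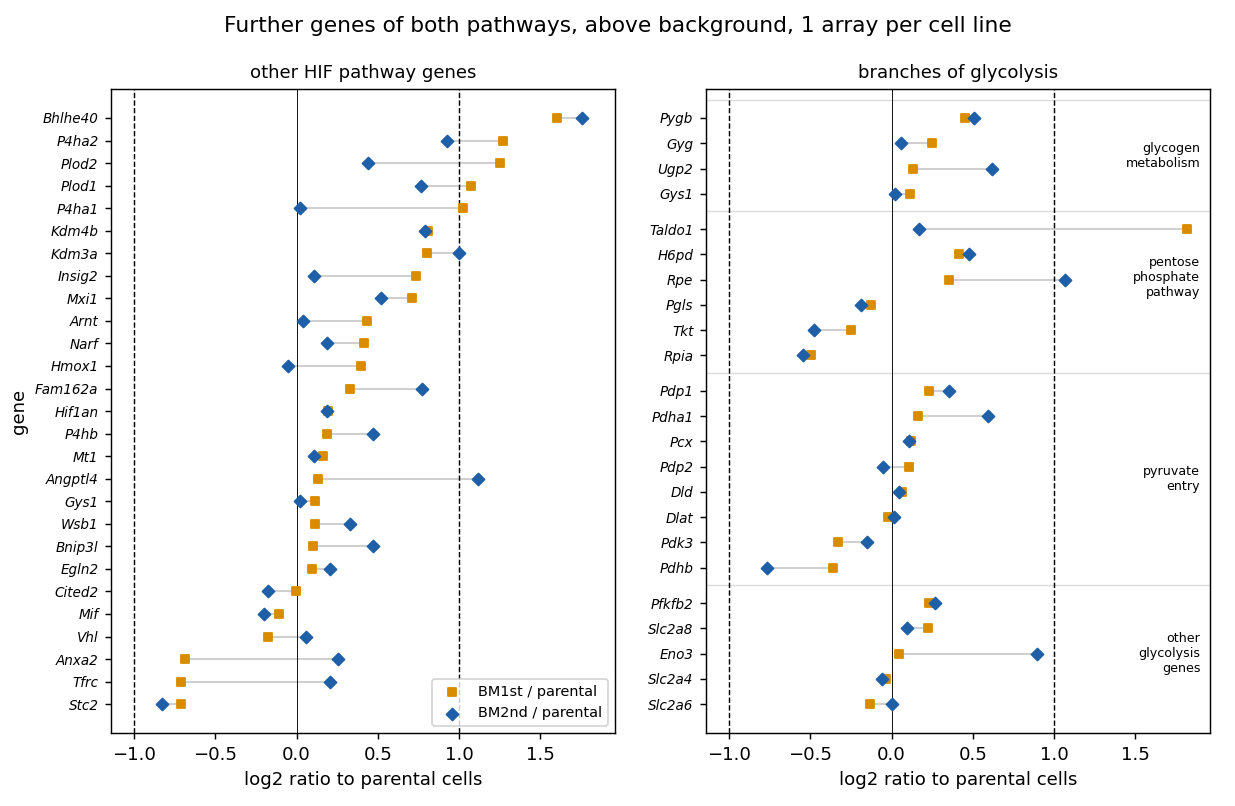
Log2 ratio to the parental cells (horizontal axis) in BM1st and BM2nd for the further genes of both pathways that were above background, in rows, with Gys1 shown in both panels. Dashed lines mark 2-fold. Bhlhe40 lies past 2-fold in both sub-lines, and Taldo1 in BM1st only.

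Other features of the arrays differed between the lines too. In the cell cycle list, with 13 genes above background, 8 fell in BM1st against the parental cells, beside 1.93% of all genes. From BM1st to BM2nd 9 rose, beside 3.29%. The list had medians of -1.27 and 1.33. Its summed intensity was 18715, 7697 and 22999, so the array with the highest hypoxia targets had the lowest cell cycle genes, and what part growth state had in the result was not tested. Of 9 leukocyte markers with a probe 4 were above background. Lyz2, Laptm5 and Fcer1g, myeloid genes, rose in BM1st, beside 2.2% of all genes. Lyz2 read 79.5, 1078 and 365, at least 9.84-fold and 3.33-fold above the parental array. The summed leukocyte signal was 889, 2360 and 1281, with the defining marker Ptprc at 102, 111 and 104, next to background, and Itgam below it on every array. Of 11 fibroblast and stroma markers 7 were above background. Of these 4 rose in BM1st and 5 in BM2nd, beside 2.2% and 2.01% of all genes above background. Lum led them and read 198, 1742 and 6133, and the summed signals of the list were 3361, 10757 and 18480. The list was not uniform: Col3a1 had a log2 ratio of -0.41 in BM1st, and Cxcl12 stayed level at 125, 128 and 120. Col1a2, Pdgfrb, Thy1 and Lepr were not above background. Erythroid markers (392, 362 and 393) and skeletal muscle markers (529, 555 and 557), both sums at background level, stayed level. Whether other cells in the cultures had a part in the results was not tested, and a change in the share of cells and a change in RNA per cell cannot be told apart.

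Of the epithelial and lung markers Krt8 (1381, 997 and 2509), Krt18 (2025, 2280 and 1274) and Cdh1 (121, 116 and 125) were above background, and Epcam, Nkx2-1 and Sftpc were below it on all arrays. Of 7 reference genes above background 0 changed by 2-fold. Their log2 ratios in BM2nd ran from -0.11 for Actb to 0.52 for Gusb, which read 1302, 1409 and 1863, with 0.19 for Ppia, 0.07 for Ywhaz and -0.08 for Hprt. Gapdh, which also serves as a reference, had a ratio of 0.53, next to that of Gusb.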

How the data were processed

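Total RNA of each line was labelled with biotin and hybridised to an Illumina mouse array. The deposited values are linear intensities per probe, exported by the authors with GenomeStudio 2011.1 according to the submitters' processing notes. How GenomeStudio normalized them was not stated in these sources. The sorted intensities of the 3 arrays differed by at most 0.274, a pattern that quantile normalization leaves, and the lowest value was 60.2, so the values were treated as normalized and not background-subtracted. Of 45281 probes 34885 had 1 gene, 18 several and 10378 none in the platform annotation. A gene was represented by its brightest probe by mean log2 intensity. The background level of an array was the 95th percentile of 1504 probes for olfactory and vomeronasal receptors (109, 110 and 107 for parental, BM1st and BM2nd), and a gene was above background if its mean log2 intensity over the 3 arrays exceeded the mean background. Log2 ratios were called past 1. Where 1 array was not above background, a fold was given as a lower bound against that array's background. Group medians cover all members with a probe. Genes named in the text were all members and, from the other 12 lists, up to 4 genes past 2-fold with the largest ratios, Actb and the 3 brightest reference genes; all others (such as Arnt, Vhl, P4hb, Gusb and the marker genes not past 2-fold) are named after their values were seen. Members and lists were chosen with earlier results of these data known. The number of arrays, 1 per line, limits the precision, and no p-value was computed. Python 3.11.15, numpy 2.4.6 and pandas 2.3.3 were used, and the scripts were tested on simulated data. Mouse Pgm1 carries the current symbol; the gene was formerly called Pgm2. Ero1a stands for the gene entered in the list of members as Ero1l.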

Additional observations from a re-analysis of the deposited data

How the results depend on the processing

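No group median changed direction under the alternatives run, apart from the enzyme median between the sub-lines, which was near 0 (0.0011, and -0.00046 with background subtracted). The 99th percentile as background and the unfiltered setting do not alter medians over all members. Of the alternatives, 49 of 60 member counts stayed within 1.5 times and 40 of 48 group medians within the scatter between probes. Members higher in BM2nd than in the parental cells numbered 3 in the report, 1 if background had to be exceeded on all 3 arrays, 6 with background subtracted (Slc2a3, Pdk1 and Egln1 were added) and 13 at 1.5-fold, where 2 were lower. Members higher in BM1st numbered 14 at 1.5-fold and 2 at 3-fold. Between the sub-lines 0 were higher in BM2nd with all arrays above background, with the mean over all probes, or at 3-fold, and 6 were lower at 1.5-fold and 0 at 3-fold. With the mean over all probes the enzyme medians were 0.39 in BM2nd and 0.30 in BM1st and the target median in BM1st 0.48. The target median in BM2nd was 0.27 over probes above background and, chosen after seeing the data, over members above background; that of BM2nd against BM1st was then -0.42, and -0.52 with all arrays above background. Without the isoform genes the enzyme median between the sub-lines was 0.17. With the mean over all probes Aldoc (0.96 in BM1st, 0.55 between the sub-lines), Egln3 (0.96) and Pfkp (-0.61) no longer passed 2-fold, nor did Egln3 (0.96) and Pfkp (-0.92) over probes above background. Of 13 members with several probes above background, all probes had the same sign in 11 for BM1st, 9 for BM2nd and 7 between the sub-lines. No replicate could be left out and no paired analysis was possible because each line has 1 array.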

Other observations

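Some genes next to glycolysis lay below the 2-fold threshold and are named after their values were seen. Eno3, the muscle enolase, read 415 in parental, 428 in BM1st and 771 in BM2nd cells, a log2 ratio of 0.89 in BM2nd, whereas Eno2 of the same family was highest in BM1st. Pdhb, a subunit of pyruvate dehydrogenase, had a log2 ratio of -0.77 in BM2nd, and Pdha1, another subunit, one of 0.59. Stc2, a secreted glycoprotein, was the HIF pathway gene with the lowest ratio in BM2nd, with 198, 120 and 111.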
